A study of Drosophila melanogaster with 12 samples.

Results

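Control xRIP libraries hold the RNA that anti-Flag beads recovered from heads of flies without a Flag-tagged protein. They were compared here with head input, as the 4 control xRIP libraries against the 4 input libraries among 12 libraries in all. The study profiled RNA of adult Drosophila melanogaster heads bound by Pumilio (Pum), by RNA immunopurification after UV cross-linking (xRIP) and sequencing of RNA 3′ ends. All libraries carry the labels adult fly heads and wt. Control xRIP (labelled w118 RIP) came from w1118 flies that express no tag, and Pum xRIP (labelled Pum RIP, 4 libraries) from flies with Flag-HA at the C-terminus of the endogenous pum gene. The inputs were head lysates, which the study's methods describe as made from UV-cross-linked head powder and cleared by centrifugation. They were named w118, pum and, for 2 of them, mixed genotype (table columns fne and rbp9). Thus 1 of the 4 inputs shared its name with the control flies. The study's methods state equal amounts of males and females. No label says that replicates came from separate fly cultures, and p-values measure only the spread between these samples.

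In xRIP, UV light joins RNA to the proteins that touch it, and beads with an antibody then pull down a tagged protein together with its RNA. Lysate without the tag passes over the same beads, so its eluate holds the RNA that the beads and washes retain without the bait. Messenger RNAs differ widely in length and abundance: those of ribosomal proteins and of small respiratory chain subunits are short and made in nearly every cell, and those of ion channels, adhesion proteins and RNA-binding regulators are long and often carry extended 3′ UTRs in neurons.

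The control xRIP libraries held 3342790 to 4485996 counts and the inputs 9563433 to 13726254. Counts above 0 were found for 3992 to 5134 genes in the control libraries and 8678 to 9603 genes in input. Rarefied to the smallest library, the means were 4473 ± 570 and 8926 ± 362 genes (SD, n = 4 and 4, exact permutation test, two-sided, p = 0.0286, the smallest p that 4 against 4 allows). The 100 most abundant genes of each library held 58.4% ± 0.321 of counts in the control libraries and 46.2% ± 3.48 in input (SD, n = 4 and 4, exact permutation test, two-sided, p = 0.0286), whereas the 20 most abundant held 27.9% and 27.2% (p = 0.857 in the same exact test). Transcripts of pum itself stood at 45.5, 0, 47.5 and 10.7 counts per 1000000 (CPM) in control xRIP replicates 1 to 4 and 38.2 to 76.2 CPM in input, beside a mean of 1769.7 CPM in Pum xRIP.

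With edgeR's quasi-likelihood test, 139 of 7645 genes tested (1.82%) were higher in control xRIP than in input and 817 (10.7%) were lower, at a Benjamini-Hochberg adjusted p below 0.05 and a log2 fold change beyond 1. All 4 control xRIP libraries lay above all inputs for 323 genes (4.22%) and below all inputs for 2429 genes (31.8%). All genes tested together had a median log2 fold change of -0.83, and changes of gene classes below are to be read against it. This median moved with the fit. It was -0.66 with the size factors of DESeq2, -0.96 without scaling factors and -3.03 by limma voom. Without the pum input it was -1.09, and without any 1 control library -1.35 to -1.14. The number called higher depended on single libraries. It was 84, 83, 74 and 67 without control xRIP replicates 1, 2, 3 and 4, and 68 without the pum input. The number called lower was 502 without the w118 input, 464 without the fne input, 466 without the rbp9 input and 1241 without Pum xRIP replicate 2, which shares the estimate of spread.

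Cytoplasmic ribosomal protein mRNAs held the largest share of the background among the 31 gene lists examined. The 78 genes of this list held 28.5 to 30.04% of the counts of the control xRIP libraries and 12.1 to 14.2% of those of the inputs, so that the groups did not overlap, and 17.4 to 19.8% in Pum xRIP. Of the 72 members tested, 46 (63.9%) rose and 1 fell, with a median log2 fold change of 1.31. The median stayed between 1.04 and 1.5, and 34 to 53 members rose, in all 21 other fits.

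RpS14a, a protein of the small subunit, stood at 19881, 14822, 20021 and 20838 CPM in control xRIP replicates 1 to 4, and at 5142, 7345, 5604 and 5933 CPM in the w118, pum, fne and rbp9 inputs. The lowest control library lay above the highest input, with a log2 fold change of 1.65 ± 0.17 (SE, edgeR adjusted p = 6.58e-05). RpS14a has a near-identical neighbouring copy, RpS14b, and the split of reads between both is uncertain. RpL18, of the large subunit, was the steadiest of the named members, at 9738, 9465, 9758 and 9971 CPM in the control libraries and 2715, 4171, 3222 and 2840 CPM in input. Its 4 control values lay close together (9733 ± 208 CPM, SD) and all above the inputs, with a log2 fold change of 1.59 ± 0.15 (adjusted p = 4.66e-05).

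RpL21, RpL24, RpS29 and RpLP1, which is part of the ribosomal stalk, also rose, with log2 fold changes of 1.85 ± 0.25, 1.52 ± 0.16, 1.67 ± 0.17 and 1.38 ± 0.23. RpL7A had a log2 fold change of 0.90 ± 0.16 (edgeR adjusted p = 0.00352), short of the fold threshold. RpS15 was called at 1.25 ± 0.16, and stood at 0.997, 0.919 and 0.975 without control xRIP replicates 1, 3 and 4. The member that fell was RpL3 (log2 fold change -1.23), named here after its value was seen. It is one of 2 members tested with a coding sequence of at least 1200 nt, and their median was -1.08, against 1.45 for the 51 members under 600 nt, of which 35 rose.

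**Figure D1:**
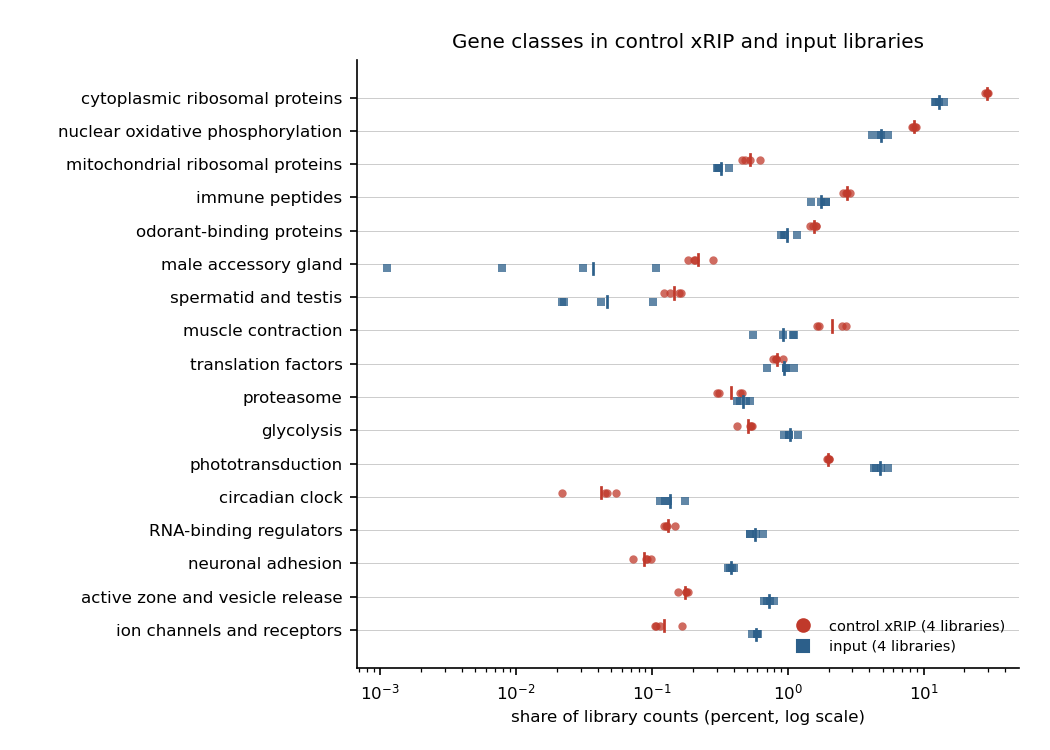
Share of each library's counts (percent, log scale) held by gene classes in the 4 control xRIP (red circles) and 4 input libraries (blue squares), with a vertical bar at each mean. Ribosomal protein genes sit at 28.5 to 30.04% in the control libraries and 12.1 to 14.2% in input, and ion channel and receptor genes at 0.106 to 0.166% and 0.549 to 0.607%.

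Nuclear genes of oxidative phosphorylation, which encode subunits of the respiratory chain and the ATP synthase, were also high. They took 8.28 to 8.76% of counts in control xRIP, 4.16 to 5.51% in input and 4.08 to 4.46% in Pum xRIP. Of 68 members tested, 26 (38.2%) rose and 0 fell, and the median log2 fold change was 0.92 (0.55 to 1.10 over the other fits). By DESeq2 on control xRIP and input, 36 rose and 2 fell. Without control xRIP replicates 1, 2, 3 and 4, 16, 10, 10 and 9 rose and 4, 3, 4 and 3 fell, without the pum input 11 rose and 2 fell, and with the w118 input alone 4 rose and 0 fell. COX4, a subunit of cytochrome c oxidase, stood at 7295, 5714, 8022 and 6569 CPM in the control libraries and 3368, 3318, 2923 and 2850 CPM in input. The groups did not overlap (log2 fold change 1.15 ± 0.16, adjusted p = 0.000487), but the fold change lay between 0.79 and 0.98, under the threshold, without the pum input or any 1 of the 4 control libraries. ATPsynF of the ATP synthase rose by 1.40 ± 0.29 on the log2 scale (edgeR adjusted p = 0.00746), and stood at 0.97 without control xRIP replicate 4. Together with ribosomal protein genes this class made up 72 of the 139 genes called higher (51.8%).

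Mitochondrial ribosomal proteins, which serve translation inside the organelle, took 0.463 to 0.628% of counts in the control libraries and 0.302 to 0.374% in input. Of 69 tested, 1 rose and 0 fell, with a median log2 fold change of 0.80. The member was mRpL49, with a mean of 338 CPM in the control libraries and 85.8 CPM in input (log2 fold change 1.98 ± 0.46, edgeR adjusted p = 0.0119, and 0.0603 without the pum input).

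Within the translation factors the members moved both ways, with 4 of 43 higher, 3 lower and a median of -0.97. The elongation factor eEF5 stood at 2428, 2690, 2758 and 3073 CPM in the control libraries and 644, 342, 1073 and 1181 CPM in input. All control values lay above the inputs (log2 fold change 1.76 ± 0.32, edgeR adjusted p = 0.00379). The helicase eIF4A stood at 187, 207, 208 and 262 CPM in the control libraries and 1128, 690, 1221 and 959 CPM in input. Here all control values lay below the inputs (log2 fold change -2.21 ± 0.37, adjusted p = 0.00182). Of the 3 members with under 600 nt of coding sequence 2 rose and 0 fell, and of the 23 with at least 1200 nt 0 rose and 3 fell.

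The vacuolar proton pump, which acidifies vesicles, showed the same mixture. Vha13 and Vha14-1 rose by 1.38 ± 0.25 and 1.53 ± 0.46 on the log2 scale (edgeR adjusted p = 0.00298 and 0.0453), the latter with an adjusted p of up to 0.16 and lost without any 1 of the 8 control xRIP and input libraries. Vha16-1, a small subunit of the membrane sector, fell, from 1192, 1524, 1307 and 1278 CPM in input to 274, 104, 181 and 212 CPM in control xRIP. Its control values lay all below the inputs (log2 fold change -2.78 ± 0.29, adjusted p = 6.6e-05), although its coding sequence has only 477 nt. VhaAC45 fell by 2.25 ± 0.52 on the log2 scale (adjusted p = 0.0125).

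Classes of neuronal function were low in the background. Genes of ion channels and receptors took 0.106 to 0.166% of control xRIP counts, 0.549 to 0.607% of input counts and 1.39 to 1.87% of Pum xRIP counts. Of 65 tested, 0 rose and 20 (30.8%) fell, the median log2 fold change was -2.52, and 16 had no count in any control library. Neuronal adhesion genes had 0 of 76 higher and 18 lower (median -2.70), and active zone and vesicle release genes 0 of 38 higher and 11 lower (median -1.76). The active zone list held 0.155 to 0.184% of control xRIP counts, 0.667 to 0.796% of input counts and 1.47 to 1.61% of Pum xRIP counts. Members of at least 1200 nt of coding sequence had medians of -2.38 (channels and receptors), -1.91 (adhesion) and -1.71 (active zone). All coding genes tested had medians of -1.35 at 1200 to 2400 nt and -1.88 at 2400 nt and over. At 600 to 1200 nt the lists had medians of -3.71, -3.04 and -2.31 (3, 17 and 7 members), against -0.37 for all. The part of coding length in these classes was not tested.

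Rdl, a GABA receptor subunit, stood at 117, 128, 80.2 and 100.9 CPM in the control libraries and 781, 1181, 695 and 1005 CPM in input. The groups were far apart (log2 fold change -3.10 ± 0.25, edgeR adjusted p = 1.03e-05). The sodium channel para stood at 68.4, 99.6, 14.1 and 80.9 CPM in the control libraries and at 296, 1509, 237 and 1024 CPM in the w118, pum, fne and rbp9 inputs. Every control value lay below every input, and the inputs themselves were spread over a wide range (log2 fold change -3.54 ± 0.73, adjusted p = 0.00711). The vesicle protein nSyb and complexin (cpx), both small proteins of transmitter release, fell by 2.31 ± 0.35 and 2.80 ± 0.39 on the log2 scale. In cpx 1 control library stood apart, at 296 CPM against 99.0, 110 and 101.1 CPM in the others and 881 to 1218 CPM in input.

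The adhesion proteins Ten-a and Nrx-1 (neurexin) fell by 3.75 ± 0.37 and 3.37 ± 0.62 on the log2 scale (edgeR adjusted p = 5.2e-05 and 0.00359), and Nrg had a log2 fold change of -0.56 ± 0.45 (adjusted p = 0.583). The channel Ih fell by 1.70 ± 0.45 on the log2 scale, with an adjusted p of 0.0671, 0.0584 and 0.0615 without the w118, fne and rbp9 inputs. VGlut, the vesicular glutamate transporter, was the exception among the named members, with 221 to 343 CPM in the control libraries and 72.8 to 203 CPM in input. Its 4 control values lay above all inputs, without passing the test (log2 fold change 1.07 ± 0.36, adjusted p = 0.0615). DESeq2 on control xRIP and input gave it a log2 fold change of 1.18 and an adjusted p of 0.00693.

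Sensory and regulatory genes followed. Phototransduction genes took 1.93 to 2.02% of control xRIP counts and 4.32 to 5.51% of input counts, with 0 of 33 higher, 9 lower and a median of -1.54. Arr2, the arrestin that switches off rhodopsin, stood at 6161, 5000, 5747 and 4549 CPM in the control libraries and 17130, 15956, 15809 and 13339 CPM in input. The groups did not overlap (log2 fold change -1.54 ± 0.15, edgeR adjusted p = 5.2e-05). Ggamma30A, a G protein subunit of the same pathway, was among the 15 most abundant genes of control xRIP at 9229.6 CPM beside 8482 CPM in input (log2 fold change 0.12 ± 0.23, adjusted p = 0.891), and its sign turned without any 1 of the control libraries. RNA-binding regulators had 0 of 42 higher and 12 lower (median -2.12), among them pasilla (ps) at -2.46 ± 0.38 and the poly(A)-binding protein pAbp at -1.58 ± 0.33. Circadian clock genes had 0 of 16 higher and 4 lower, among them Pdp1 (log2 fold change -1.31 ± 0.29).

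Glycolysis genes had 0 of 15 higher and 4 lower, with a median of -1.08, and took 0.424 to 0.551% of control xRIP counts and 0.942 to 1.18% of input counts. The aldolase Ald1 stood at 1172, 915, 1187 and 1332 CPM in the control libraries and 3413, 3642, 2946 and 3846 CPM in input, without overlap (log2 fold change -1.59 ± 0.18, edgeR adjusted p = 0.000102), whereas Gapdh1 had a log2 fold change of -0.46 ± 0.28 (adjusted p = 0.373). The list of fat body and glia genes, not all of secreted proteins, had 0 of 18 higher and 4 lower. Its median was -0.93, close to that of all genes tested. The lipoprotein apolpp and the yolk protein Yp1 fell by 2.29 ± 0.27 and 2.07 ± 0.33 on the log2 scale. Proteasome genes had 0 of 33 higher and 0 lower, with a median of -0.26 that lay above that of all genes tested.

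Lists of secreted peptides gave few calls. Immune peptides took 2.56 to 2.88% of control xRIP counts, 1.48 to 1.92% of input counts and 2.53 to 2.95% of Pum xRIP counts, with 3 of 35 higher, 0 lower and a median log2 fold change of 0.50. BomS6, a Bomanin peptide of the Toll response, stood at 8624, 6678, 8356 and 11065 CPM in the control libraries and 3388, 4325, 2425 and 2334 CPM in input. The groups did not overlap (log2 fold change 1.48 ± 0.21, edgeR adjusted p = 0.000619). The odorant-binding protein Obp56e rose by 1.97 ± 0.27 on the log2 scale (adjusted p = 0.000406) as 1 of 2 such members among 22 tested, with 0 lower. Of 35 neuropeptide precursors tested, 1 rose and 2 fell, and 2 had all control values above the inputs and 11 all below. Their median of -0.88 was near that of all genes tested. The list took 0.702 to 0.997% of control xRIP counts and 0.213 to 0.643% of input counts, without overlap. Nplp3 was the member that rose, by 1.54 ± 0.29 on the log2 scale (adjusted p = 0.00454), and its w118 input, at 4674 CPM, was the highest of the inputs and below all 4 control values of 6533 to 9526 CPM. With that input alone its log2 fold change was 0.47 (adjusted p = 0.511).

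A few genes of tissues outside the head stood among the largest increases. The marker genes of testis summed to 605 to 1188 CPM in the control libraries and 6.55 to 201 CPM in input, those of midgut to 793 to 1191 and 75.7 to 605 CPM, and those of the male accessory gland to 44.8 to 258 and 1.40 to 58.9 CPM. Of the 8 testis markers in the table, 1 had no control count and 7 had a higher mean in control xRIP. For midgut and accessory gland, 3 of 6 and 3 of 5 had a higher mean. Only 1 testis, 1 midgut and 0 accessory gland markers were called higher. In the gene lists, 1 of 15 testis, 1 of 18 accessory gland and 1 of 16 digestive enzyme genes tested were called higher, beside 1.82% of all genes. The gene alphaTry alone averaged 713 CPM in control xRIP, where the midgut sum averaged 1033 CPM. The accessory gland sums of the groups overlapped. The w118 input was the highest input for all of these sums. Markers of neurons went the other way, with 474 to 712 CPM in the control libraries and 2823 to 4477 CPM in input, as did those of photoreceptors with 8362 to 10144 and 28851 to 34199 CPM. In the gene lists of these tissues, the 9 spermatid and testis genes tested under 600 nt of coding sequence had a median log2 fold change of 2.82. The 5 of 1200 nt and over had one of -1.87, and all 18 accessory gland genes tested were under 600 nt. Digestive enzymes had medians of 1.79 in the 12 of 600 to 1200 nt and -3.06 in the 4 longer ones. Fewer cells of a type and less RNA per cell cannot be told apart in bulk samples. The part of tissue makeup or genotype in any result here, and of coding length in these sums, was not tested.

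Dup99B, a seminal peptide of the ejaculatory duct, stood at 143, 472, 367 and 323 CPM in the control libraries and 86.0, 32.8, 15.98 and 2.79 CPM in the w118, pum, fne and rbp9 inputs. All control values lay above the inputs, of which the w118 input came closest (log2 fold change 3.24 ± 0.94, edgeR adjusted p = 0.0458). The trypsin alphaTry of the gut stood at 887, 861, 558 and 546 CPM in the control libraries and at 293 CPM in the w118 input beside 26.4 to 68.1 CPM in the others (log2 fold change 2.68 ± 0.79, adjusted p = 0.0411). Both calls, and that of the sperm gene Mst87F (3.84 ± 1.09), were lost without any 1 of the control libraries or of the pum, fne and rbp9 inputs, with adjusted p-values of up to 0.119, 0.134 and 0.116. With the w118 input alone none of the 3 passed the test (log2 fold changes 1.61, 0.96 and 2.12, adjusted p = 0.936, 0.977 and 1).

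The muscle troponin TpnC25D had the largest log2 fold change of all calls, 4.36 ± 1.14 (edgeR adjusted p = 0.0234), with 8053, 18094, 8607 and 23409 CPM in the control libraries and 802, 29.3, 1334 and 666 CPM in input. Its adjusted p was 0.0602 without the w118 input, 0.0709 without the rbp9 input and 0.0537 without control xRIP replicate 4. Mlp60A, another muscle protein, rose by 1.32 ± 0.22 on the log2 scale (edgeR adjusted p = 0.00177). Of 27 muscle contraction genes tested, 2 (7.41%) rose and 3 (11.1%) fell, with a median log2 fold change of -0.11. The summed muscle markers stood at 1924 to 2310 CPM in the control libraries and 866 to 2256 CPM in input. The gene se (sepia), of eye pigment synthesis, rose with a log2 fold change of 2.23 ± 0.26 (adjusted p = 0.000127), from 312 to 485 CPM in input to 1751, 2649, 1615 and 1539 CPM in control xRIP, and kept its call without any 1 library.

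The other genes with the largest increases were CG30033, asRNA:CR44107, asRNA:CR44370, CG34330 and CG31800, at log2 fold changes of 3.41, 2.83, 2.71, 2.57 and 2.42. Each of these calls was lost without 5 to 8 of the 8 control xRIP and input libraries taken singly, with an adjusted p of at most 0.138, and each of the 8 libraries ended the call of at least 1 of these genes. Whether counting kept antisense genes apart by strand is not given in the sources used here.

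**Figure D2:**
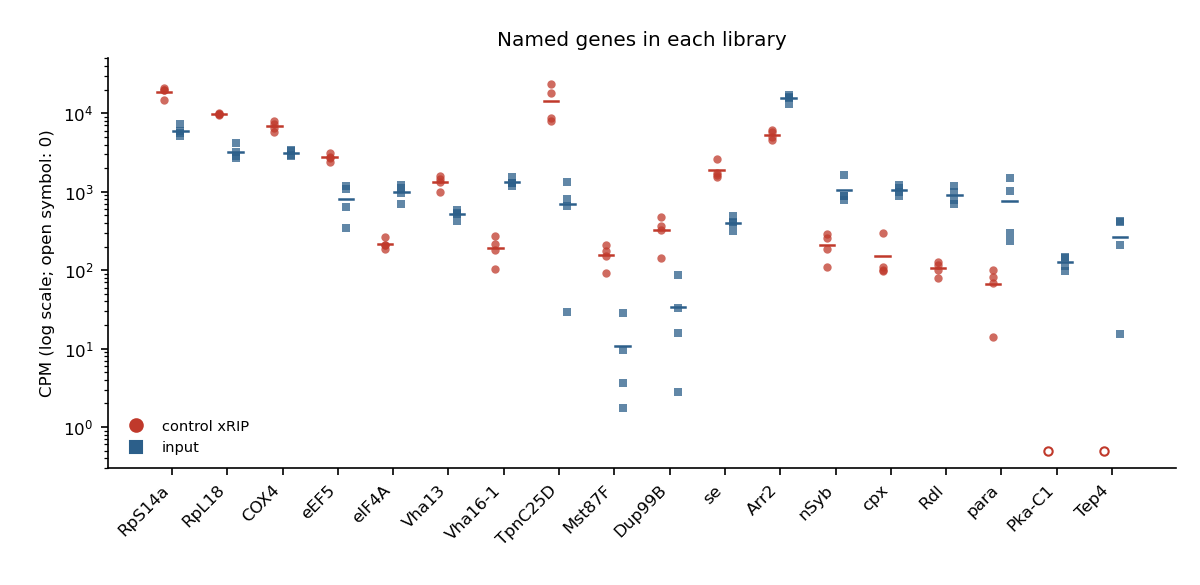
CPM (log scale) of named genes in each control xRIP (red circles) and input library (blue squares), with bars at means and open symbols where all control libraries were at 0. RpS14a lies between 14822 and 20838 CPM in the control libraries and at most 7345 CPM in input, while Rdl lies between 80.2 and 128 CPM and at least 695 CPM.

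At the other end, 2972 genes had no count in any control xRIP library, among them 1109 of the genes tested and 542 of those called lower. The 5 with the highest input level were Tep4, CG2269, Pka-C1, Cyp6a17 and CG2701. Pka-C1, the catalytic subunit of protein kinase A, stood at 145, 112, 146 and 98.2 CPM in the w118, pum, fne and rbp9 inputs and had 0 counts in all control libraries. Against a floor of 3 counts over the 4 control libraries (0.215 CPM) it was 583-fold lower (edgeR adjusted p = 9.49e-05). This floor allows for counting error only, while same-group libraries differed beyond it, so folds by the floor are not lower bounds. CG2269 and CG2701 were 597- and 414-fold lower by the same floor, the latter with an adjusted p of 0.0516 without the rbp9 input.

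Tep4 and Cyp6a17 differed between inputs. Tep4, a thioester-containing protein of blood cells and fat body, stood at 15.3 CPM in the w118 input and 427, 208 and 415 CPM in the pum, fne and rbp9 inputs. Cyp6a17, a cytochrome P450, had 0 counts in the w118 input and in every control library beside 79.6 to 153 CPM in the other inputs. For both, the level of the control flies' own input was far below the mean of the inputs, and a difference of genotype and one of recovery cannot be told apart.

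The remaining genes with the lowest fold changes, CG42404, CG30116, hfw, ecd, CG15760 and CG44245, also had 0 counts in control xRIP. Their means were 63.3 to 83.2 CPM in input, and they were lower by 295 to 387 times by the floor. The call of CG15760 was lost without any 1 input, with an adjusted p of up to 0.0614.

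The most abundant RNAs of control xRIP were not all enriched. The noncoding RNA lncRNA:CR34335 had the highest mean, 76747 CPM, beside 90715 CPM in input (log2 fold change -0.24 ± 0.16, edgeR adjusted p = 0.439). An 18S rRNA pseudogene, 18SrRNA-Psi:CR41602, whose reads can be shared with copies of ribosomal RNA genes, stood at 37870 CPM beside 78545 CPM (log2 fold change -1.05 ± 0.35, adjusted p = 0.0623). It was called lower without the rbp9 input (-1.30, adjusted p = 0.0259), control xRIP replicate 1 (-1.39, 0.0403), control xRIP replicate 3 (-1.34, 0.0457) or the mixed genotype inputs (-1.59, 0.0156), and stood at -0.65 without the pum input. Its pum input alone was at 166550 CPM, against 36231 to 56223 CPM in the others. The noncoding lncRNA:noe had a log2 fold change of 0.77 ± 0.13 (adjusted p = 0.00254), below the fold threshold. All long noncoding RNAs together took 7.87 to 8.79% of control xRIP counts and 8.32 to 12.6% of input counts.

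The length of the coding sequence, which the calls did not use, differed between the genes called. Genes called higher had a median coding length of 414 nt (quartiles 288 and 537), those called lower 1956 nt (1299 and 3084), and all tested 1368 nt (777 and 2259). Of the 137 coding genes called higher, 110 were under 600 nt, and of the 791 called lower, 624 had 1200 nt or more. Over the whole coding transcriptome, genes of 300 to 600 nt held 44.0% ± 0.222 of protein-coding counts in the control libraries and 24.5% ± 0.532 in input (SD, n = 4 and 4). Genes of 2400 nt and over held 3.71% ± 0.113 and 14.3% ± 0.688.

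The order remained when ribosomal protein and oxidative phosphorylation genes were left out. Genes under 300 nt then held 20.3% ± 0.866 of protein-coding counts in the control libraries and 9.72% ± 0.834 in input, and those of 2400 nt and over 6.58% ± 0.288 and 18.4% ± 0.846 (SD, n = 4 and 4). In both sets the control and input libraries did not overlap in any of the 5 length classes. Among all coding genes, 12.4% of the 298 tested under 300 nt, 7.81% of 935 of 300 to 600 nt and 0 of 1699 of 2400 nt and over were called higher, and 0.671%, 2.89% and 17.4% were called lower. Without the genes of both lists, 6.62% of 272 genes under 300 nt were higher and 0.735% lower, whereas in the class of 300 to 600 nt the calls were nearly even, with 3.83% of 861 genes higher and 3.14% lower.

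**Figure D3:**
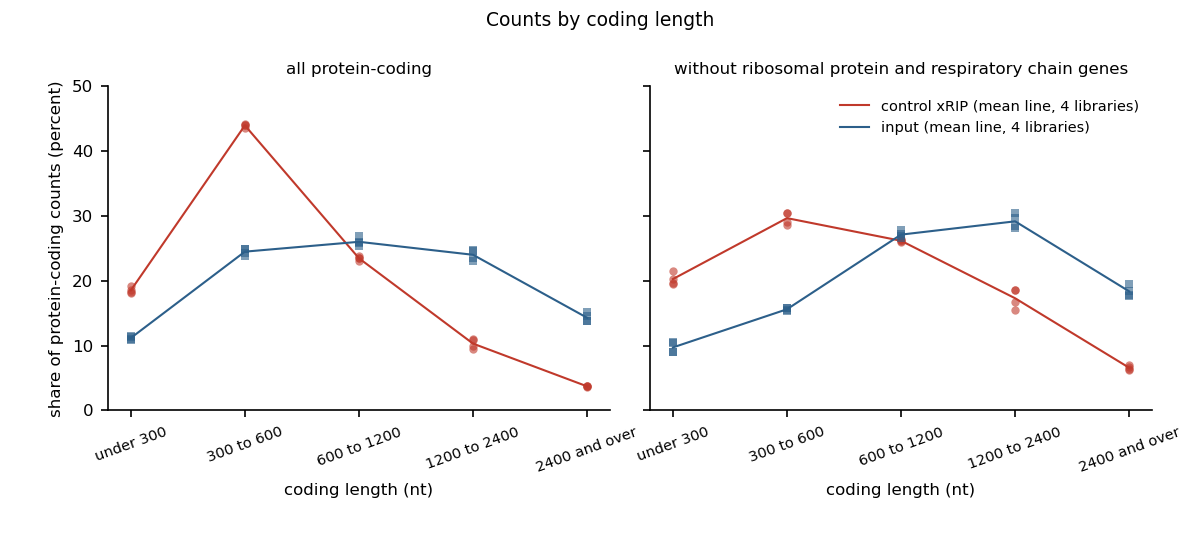
Share of protein-coding counts (percent) by coding length in each control xRIP (red circles) and input library (blue squares), with lines through the means, for all protein-coding genes and without ribosomal protein and respiratory chain genes. With all genes the class of 300 to 600 nt holds 44.0% of control xRIP counts and 24.5% of input counts.

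The 3′ UTR added to this. Among 550 tested genes with a coding length under 600 nt and a longest annotated 3′ UTR under 150 nt, the median log2 fold change was 1.06 and 44 rose. Among 82 genes of the same coding length with a 3′ UTR of 1000 nt or more it was -0.99, 2 rose and 15 fell. Vha16-1 and cpx, named above as lower, have short coding sequences (477 and 471 nt) with longest annotated 3′ UTRs of 2228 and 8785 nt. Across coding lengths of 2400 nt and over the medians were between -2.93 and -1.44 and followed no order of 3′ UTR length. Spearman correlations over the 2001 coding genes with counts in all 4 control libraries are given as a description, since these genes share the same 8 libraries. The fold change had correlations of -0.68 with coding length, -0.71 with transcript length, -0.46 with 3′ UTR length and -0.11 with GC content. The mean control xRIP level, and not the fold change, had a correlation of 0.66 with the mean input level. The input level, which is one side of the fold change, had a median of 844 CPM for genes called higher, 19.3 CPM for those called lower and 24.4 CPM for all tested, and its part in the relation with length was not tested. Annotation uses the longest transcript features of each gene and not the 3′ ends in use in heads.

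**Figure D4:**
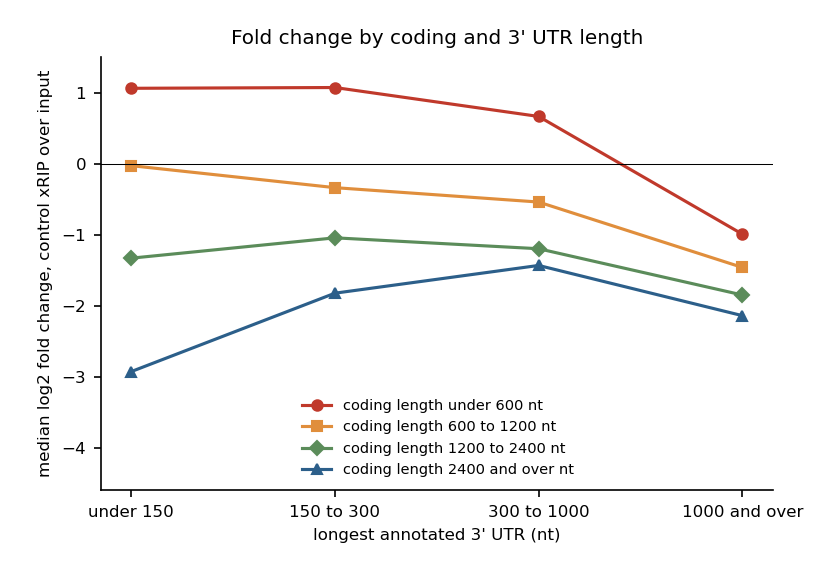
Median log2 fold change of control xRIP over input for tested genes grouped by coding length (lines) and longest annotated 3′ UTR (x axis, nt). The line of coding lengths under 600 nt runs from 1.06 at the shortest 3′ UTRs to -0.99 at 1000 nt and over, and all points of coding lengths of 1200 nt and more are below 0.

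Recovery followed the input level and the length together. Of genes with a mean input level of 30 to 100 CPM, 83.1% of the 71 with under 300 nt of coding sequence had counts in all 4 control libraries, against 44.1% of 524 with 600 to 1200 nt and 19% of 500 with 2400 nt and over. At 100 to 300 CPM these shares were 97.2%, 84% and 51.0%. The summed CPM of the genes under 300 nt at 100 to 300 CPM was 1.84 to 2.28 times that of the inputs in the control libraries, and that of genes of 2400 nt and over 0.231 to 0.327 times. Rarefied to the smallest library, the control libraries still held 3981 to 5115 genes.

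**Figure D5:**
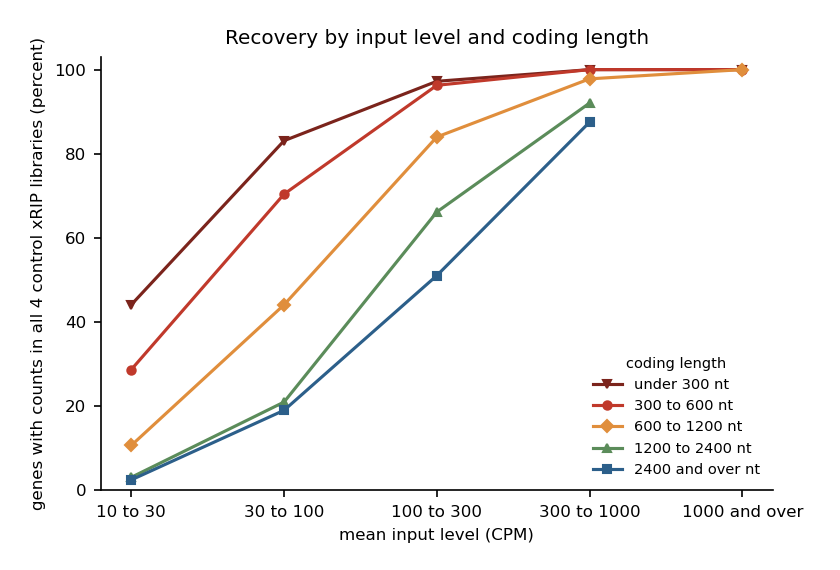
Percent of genes with counts in all 4 control xRIP libraries by mean input level (CPM) and coding length (lines). At 30 to 100 CPM the share runs from 83.1% for genes under 300 nt to 19% for genes of 2400 nt and over, and classes of fewer than 20 genes are not drawn.

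The annotated 3′ ends of genes on both sides are printed because the same poly(A) signal stands in them, as the last 30 bases of the transcript with the longest 3′ UTR, 5′ to 3′ on the gene's strand (Release 6 genome). The clusters carry no coordinates in the tables, so whether reads lie at these ends was not tested. Capitals mark AATAAA, the canonical poly(A) signal, and copies that overlap a marked one are not marked separately. The first 6 genes rose and the last 4 fell.
RpS14a (chrX:7934648-7934677, + strand): gcactgtAATAAAccaggaaaatacgatgt
RpL18 (chr3L:7240203-7240232, - strand): ggcAATAAAagagttttattccaaaaggtg
Vha13 (chr3R:19643018-19643047, - strand): cataaAATAAAatgtacaatgtaaagcaat
TpnC25D (chr2L:5219024-5219053, + strand): tttttaAATAAAttaactaaccgctttaat
Mst87F (chr3R:13827151-13827180, - strand): ttgagacAATAAAtatgaggtgtaagcttc
se (chr3L:8521460-8521489, + strand): catggaatgAATAAAacataaatgcagtcc
nSyb (chr3L:1630348-1630377, - strand): acataattatttaAATAAAtaAATAAAaac
Ten-a (chrX:12335185-12335214, + strand): attaaaAATAAAtaaatgaatatgaaaact
Nrx-1 (chr3R:22486940-22486969, + strand): aacattgcatatAATAAAtacAATAAAact
Pka-C1 (chr2L:9682315-9682344, - strand): aaaaaaaccAATAAAatgaatttgaaatcc

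The signal stands at both kinds of end. AATAAA was present in the last 50 bases of 49.6% of 137 genes called higher, 59.8% of 791 called lower and 58.1% of 7394 tested, counted on the transcript strand. The Pumilio recognition motif TGTANATA (N for any base, transcript strand) lay in the longest annotated 3′ UTR of 4.38% of genes called higher, 36.5% of those called lower and 23.6% of all tested. Since 3′ UTR lengths differ, the shares were also taken within lengths. For 3′ UTRs under 150 nt they were 1.85% of 54 genes called higher, 9.21% of 152 called lower and 7.20% of 2084 tested, and for 150 to 300 nt 2.44% of 41, 12.2% of 90 and 12.9% of 1322, so that there genes called lower did not exceed all tested. For 300 to 1000 nt they were 10.5% of 38, 28.5% of 221 and 25.3% of 2393 genes, and for 1000 nt and over 0 of 4, 61.3% of 328 and 51.5% of 1595. In Pum xRIP, 307 of the 817 genes called lower here had a higher mean than in input, as had 91 of the 139 called higher. The same count over all genes tested was not taken, so these counts carry no reading about Pum.

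Reads were also counted per 3′-end cluster, a group of neighbouring cleavage positions. Of 14235 clusters tested, 82 (0.576%) were higher and 3647 (25.6%) lower in control xRIP, and the number lower was 1580, 1916, 1639 and 1663 without the w118, pum, fne and rbp9 inputs and 5499 to 6045 without any 1 Pum xRIP library. Clusters called higher numbered 54, 54, 53 and 52 without the w118, fne and rbp9 inputs and control xRIP replicate 4. Of the 82, 78 belonged to genes called higher, and 41 to 35 ribosomal protein genes. Only 8 genes held clusters called in both directions, among them RpL31, RpL37-1, RpS15, RpS26 and ATPsynC. For ATPsynC, a ring subunit of the ATP synthase chosen after its values were seen, 1 cluster rose by 1.97 on the log2 scale (edgeR adjusted p = 0.000372), at 3812 to 4439 CPM in the control libraries and 667 to 1176 CPM in input. The 2 others that fell were rare, at 3.51 to 12.1 CPM in input and 0 to 0.266 CPM in the control libraries.

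Genes with several clusters were more often read at a single 3′ end in control xRIP, whose libraries were also the shallower. Rarefied to the smallest library, the control libraries held 6151 to 8499 clusters and the inputs 26330.5 to 32777. The part of depth in the reading of single ends was not tested. Of genes with at least 20 counts and more than 1 cluster, 55.6 to 63.7% had all counts in 1 cluster in a control xRIP library and 11.6 to 17.9% in an input library. The leading cluster of a gene was that of the input mean in 68.2 to 71.2% of genes in control xRIP, and that of the other inputs in 81.6 to 87.7% of genes in input. Ion channel and receptor genes had 33 to 72 clusters with counts per control library and 451 to 590 per input, whereas ribosomal protein genes had 231 to 284 and 327 to 394.

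Genes without counts in some control libraries held a small part of the control counts. Counts in all 4 control libraries were found for 2072 genes (19.9% of 10422), which held 92.4% of the control counts, and in 1 library only for 2437 genes, which held 1.47%. In input, 8190 genes had counts in all 4 libraries. For clusters, 2264 of 56392 were found in all 4 control libraries and held 88% of counts, against 20904 in input.

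Only the w118 input carries the name of the control flies, and the comparison was repeated with it as the sole input, whose spread was then assumed to equal that of the other groups. Of 9381 genes tested, 50 rose and 190 fell, of which 47 and 165 were also called with all inputs. Ribosomal protein genes made up 41 of the 50, and oxidative phosphorylation genes 4. All 4 control values lay above the w118 input for 138 of the 139 genes called higher and below it for 811 of the 817 called lower. The calls used these same libraries, and 136 and 807 of these genes lay beyond all 4 inputs. These counts are therefore no separate test. The w118 input was the highest input for 36 of the 139 genes called higher, beside 1756 of the 7645 tested.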

How the data were processed

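RNA 3′ ends of 12 libraries were sequenced by the authors with a QuantSeq 3′ REV kit. Per the study's methods and labels, reads were mapped to dm6 with STAR 2.6.1b, ends at genomic A-runs were removed and the rest grouped into clusters and assigned to genes. The authors deposited whole-number counts for 10422 genes and 56392 clusters, with no normalization, and gene counts equalled the sum of their clusters for all 10422 genes. The other 4 deposited tables repeat the same counts and were not used. No molecular identifiers are mentioned, so counts are of reads, not of molecules.

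Here, edgeR 4.0.16 (R 4.3.3, TMM, filterByExpr, quasi-likelihood) was fitted to all 12 libraries in 3 groups, with the contrast control xRIP against input and Benjamini-Hochberg adjustment. The test was tested on simulated data. CPM are counts per 1000000 of the TMM effective library size. Alternatives used DESeq2 1.42.0, limma 3.58.1 (voom), other scaling, no filter, fewer inputs and each library left out. Every pair of same-group libraries differed beyond counting error, with 76.3 as the lowest ratio of chi-square to its degrees of freedom. Lengths and names came from the Ensembl annotation of Release 6 for 10345 genes and sequences from the RefSeq genome of that release.

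Genes were named by rule: the 10 largest and 10 smallest fold changes among called genes without overlap, the 15 most abundant in control xRIP, the 5 most abundant in input without a control count, 2 members by control and 2 by input level of each list, and pum. Exceptions are marked. Members, gene lists and this rule were chosen with earlier results of these data known, and name collisions in lists were removed by symbol. Columns fne and rbp9 could be tied to the mixed genotype inputs only as a group.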

Additional observations from a re-analysis of the deposited data

Results flagged for a closer look

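Of 188 groups of 4 libraries examined, 15 had 1 library that stood apart from the other 3 by Dixon's test at the 95% level. Chance gives this in about 5% of such groups.

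Among the inputs, the pum input was high for 18SrRNA-Psi:CR41602 (166550 CPM against 36231 to 56223 CPM), the 28S rRNA pseudogene 28SrRNA-Psi:CR45851 (8948 CPM against 2534 to 3227 CPM) and nSyb (1650 CPM against 789 to 878 CPM), and low for Vha14-1 (129 CPM against 156 to 157 CPM). The w118 input was high for alphaTry (293 CPM against 26.4 to 68.1 CPM), the sperm gene Mst84Da (66.5 CPM against 1.73 to 10.7 CPM) and the accessory gland gene Acp98AB (139 CPM against 2.50 to 14.2 CPM). The rbp9 input was high for the share of mitochondrial ribosomal protein genes (0.374% against 0.302 to 0.313%).

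Among the control xRIP libraries, replicate 2 was low for RpS14a (14822 CPM against 19881 to 20838 CPM) and for the share of glycolysis genes (0.424% against 0.529 to 0.551%). Replicate 4 was high for cpx (296 CPM against 99.0 to 110 CPM) and the histone His4r (1012 CPM against 746 to 769 CPM). Replicate 1 was high for Nrg (227 CPM against 113 to 130 CPM) and low for Acp98AB (180 CPM against 421 to 435 CPM), and replicate 3 was low for Mst84Da (243 CPM against 397 to 405 CPM). The causes were not tested.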

How the results depend on the processing

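Counts of calls moved with the fit and their cause was not tested. Genes higher numbered 240 by DESeq2 on all groups, 379 by DESeq2 on control xRIP and input, 62 without the mixed genotype inputs, 50 with the w118 input alone and 67 to 151 without 1 library. Genes lower numbered 331 without a filter, 1322 by edgeR on control xRIP and input, 1614 by DESeq2 on the same libraries, 2787 by voom, 253 without the mixed inputs, 190 with the w118 input alone and 464 to 1241 without 1 library. Clusters higher numbered 141 and 124 under DESeq2 size factors and library totals, 10 without a filter, 126 and 379 by edgeR and DESeq2 on control xRIP and input, 130 by voom, 30 and 24 with fewer inputs and 52 to 97 without 1 library. Clusters lower numbered 360 without a filter, 8167 by voom, 1061 and 189 with fewer inputs and 1580 to 6045 without 1 library. No gene called in one direction was called in the other by another fit (0 of 139 and 0 of 817).

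Without 1 library, the difference in genes detected was -4832 to -4446 and that in the share of the top 100 genes 11.5 to 14 points, where 3 against 4 cannot pass (smallest p 0.0571). The share of the top 20 differed by 0.681 points.

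Differences in class shares (points, control xRIP minus input) moved beyond 1 SD in these cases and kept their direction. Without lncRNA:CR34335 they were 17.3 for ribosomal proteins, -0.613 for active zone, -0.512 for ion channels, -0.323 for adhesion and -0.489 for RNA-binding regulators. With the w118 input alone they were 17.2 for ribosomal proteins, 3.02 for oxidative phosphorylation, -3.52 for phototransduction and -0.621 for active zone. With the same input they were -0.525 for RNA-binding regulators, 1.24 for immune peptides and 20.2 for coding lengths of 300 to 600 nt. They were also 0.0174 for digestive enzymes (0.0851 with all inputs), 0.190 for neuropeptide precursors (0.423) and 0.0438 for spermatid and testis genes (0.0985). Male accessory gland stood at 0.112 (0.183 with all inputs), yolk and eggshell at -0.256 (-0.575) and cuticle proteins at -0.130 (-0.0197). The circadian clock stood at -0.134 (-0.0948 with all inputs) and the fat body and glia list at -0.310 (-0.449). Without ribosomal protein and respiratory chain genes, an alternative chosen after seeing the data, the 5 length classes differed by 10.5, 14.1, -0.948, -11.9 and -11.8 points. Small differences changed sign for detoxification (0.0056 with the w118 input alone), cuticle proteins (-0.0702 to 0.0171 without 1 library), chemosensory receptors (-0.000282 to 0.00184 without 1 library) and long noncoding RNA (0.299 without lncRNA:CR34335). The log2 fold change of Ggamma30A turned to -0.031 without the mixed inputs and ran from -0.30 to 0.13 without 1 library.

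The share of genes called lower with TGTANATA was 29.2% by DESeq2 on control xRIP and input and 30.6% by voom. Of 1594 alternative fold changes of 76 named genes, 205 lost and 22 gained the call. No paired analysis was possible because the inputs carry no replicate numbers. Values near 0 in the control libraries, which were the shallower, are uncertain. Folds of genes at 0 in all 4 rest on the assumed floor and are not bounds.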

Other observations

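Gene groups outside the comparisons above were also read. Histone genes took 0.147 to 0.248% of control xRIP counts and 0.0829 to 0.109% of input counts, with 1 of 4 tested higher, His4r (log2 fold change 1.13 ± 0.29, edgeR adjusted p = 0.0226). That call was lost, with an adjusted p of up to 0.127, without the w118, pum or rbp9 input or any 1 control library. Tubulin genes took 0.0628 to 0.152% and 0.249 to 0.683%, with 1 of 5 lower, alphaTub84B (log2 fold change -1.82 ± 0.54, edgeR adjusted p = 0.0426), and with 0.0570, 0.126 and 0.0543 without the fne input, the rbp9 input and control xRIP replicate 1. Chaperone genes had 0 of 17 higher and 1 lower, Hsp83 (log2 fold change -1.84 ± 0.44). The 3 chaperone genes with under 600 nt of coding sequence had a median log2 fold change of 2.54 and the 11 with at least 1200 nt one of -1.03, with 0 and 1 called. Cytochromes P450 and other detoxification genes had 0 of 86 higher and 5 lower. Of 45 genes called higher in no list, CG31904 was the most abundant, with 9626 to 12727 CPM in control xRIP and 2837 to 8195 CPM in input (log2 fold change 1.15 ± 0.32, edgeR adjusted p = 0.0331), and with the w118 input alone it stood at 0.14 (adjusted p = 1). Its call was lost without any 1 control library or the pum, fne or rbp9 input (log2 fold change 0.67 to 1.10, adjusted p = 0.0902 to 0.201).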
